A study of Sus scrofa with 6 samples.

Results

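The 10 genes described here encode core proteins of the piRNA pathway and of germ granules: PIWIL1, PIWIL2, GTSF1, PLD6, TDRKH, ASZ1, TDRD1, MAEL, DDX4 and DAZL. They were chosen by gene symbol, and all 10 were found among the 30376 genes of the expression table. Each was counted in poly(A) RNA of pig 4-cell embryos, in 3 libraries of embryos cultured at 41.5 °C (high temperature) and 3 libraries cultured at 38.5 °C (control). Both groups developed for 4 days from oocytes activated with 2 direct-current pulses of 120 V, and the labels name no sperm. Under genotype the labels enter HT for the heated libraries and WT for the controls, with no strain or allele. The extraction protocol speaks of about 300 samples in lysis buffer, which is read here as many embryos pooled in a library. By its title the series asks what high temperature does to zygotic genome activation. Nothing in the labels ties replicates to separate cultures, and every p-value below therefore describes spread among libraries that may be technical replicates.

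PIWI proteins are Argonaute relatives that are loaded with piRNAs, small RNAs of the germline, and use them to find and cut or silence transposon transcripts. Precursor RNAs are processed at the surface of mitochondria and in cytoplasmic germ granules (nuage), where Tudor proteins hold PIWI proteins, helicases and other factors together. In mouse most of these genes are known for their need in spermatogenesis, while oocytes of several other mammals, among them cattle and golden hamster, also make PIWI proteins and piRNAs. The data hold messenger RNA, so they give transcript levels of the machinery and not piRNAs, proteins or granules.

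Each library held 28114005 to 30079385 reads assigned to genes. The 15 oocyte and early embryo markers were all detected, and their summed level was 5269.8 to 9463 TPM at high temperature and 5844 to 9327 TPM in controls. TPM is the authors' transcript abundance, scaled for transcript length and for the total of its library, and it is used below wherever genes are compared with each other. Of 13 measured cumulus and granulosa markers 7 had no read in any library, among them FSHR, AMH and FOXL2, and the summed level was 2.35 to 4.32 TPM at high temperature and 2.48 to 5.13 TPM in controls. Markers of stroma and blood summed to 4.41 to 5.18 TPM at high temperature and 4.15 to 6.25 TPM in controls. Markers of spermatids and sperm, which share the piRNA genes, summed to 0.942 to 2.26 TPM at high temperature and 0.925 to 2.76 TPM in controls, with the protamine genes PRM1 and PRM2 and the acrosin gene ACR at 0 reads. With embryos taken to be pooled, fewer embryos or cells with a transcript and less of it per cell cannot be told apart.

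All 10 transcripts were present in every library, and they spanned a wide range of levels. GTSF1 was the most abundant with a mean of 69.0 TPM over the 6 libraries, rank 1239 of 30376 genes. MAEL followed at 23.3 TPM (rank 2690), PIWIL1 at 15.9 TPM (rank 3390) and TDRD1 at 10.5 TPM (rank 4278). DAZL averaged 7.19 TPM, ASZ1 5.38 TPM, DDX4 4.84 TPM, TDRKH 3.02 TPM, PIWIL2 2.27 TPM and PLD6 2.095 TPM (rank 8347). GTSF1 made up 44.4% to 51.8% of the summed TPM of the 10 genes at high temperature and 43.0% to 55.4% in controls.

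The ranges over the 6 libraries did not overlap between GTSF1 and MAEL, nor between DDX4 and TDRKH, and overlapped between all other neighbours in this order. Within libraries the order was firmer in its upper part. MAEL was above PIWIL1, and PIWIL1 above TDRD1, and TDRD1 above DAZL, in 6 of 6 libraries each. DAZL was above ASZ1 in 4 of 6 libraries, ASZ1 above DDX4 in 3 of 6, and TDRKH above PIWIL2 in 5 of 6. The order of PIWIL2 and PLD6 differed between the groups. PLD6 was above PIWIL2 in all 3 heated libraries, at 2.57, 2.70 and 2.99 TPM against 1.77, 2.11 and 2.16 TPM, and below it in all 3 controls, at 0.874, 1.91 and 1.53 TPM against 2.69, 2.85 and 1.995 TPM. This split by temperature was picked out after the values were seen, and PLD6 had 17 to 51 reads a library. The difference between these genes was not tested across temperatures.

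**Figure D1:**
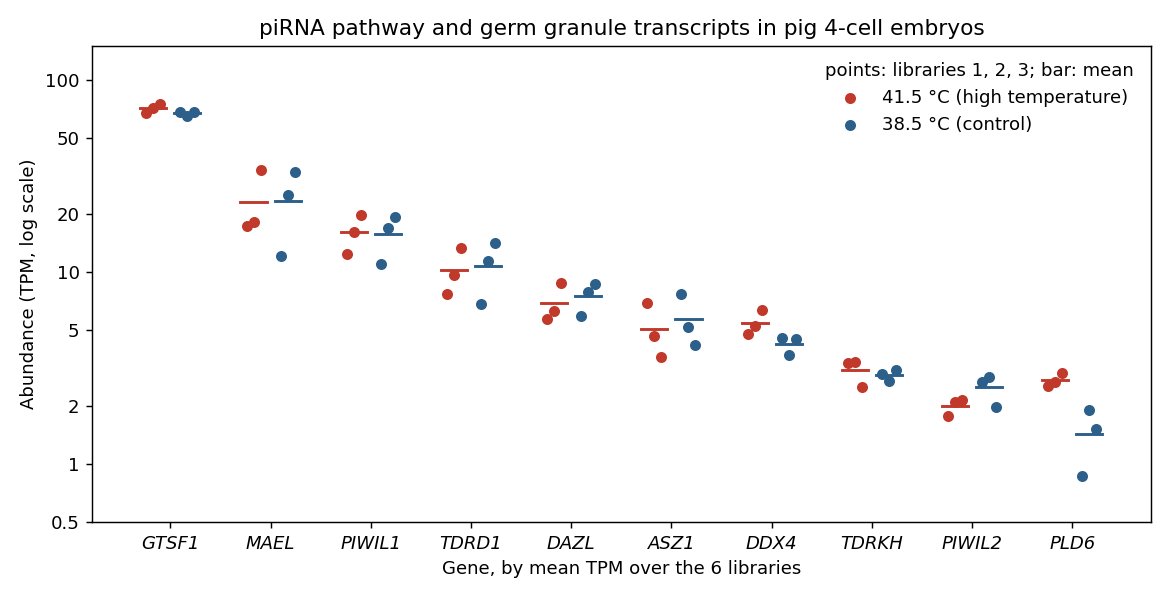
Abundance in TPM (log scale) of the 10 genes, ordered by mean; points are the 3 libraries of each group and bars the group means. GTSF1 stands above the rest in all 6 libraries (64.9 to 74.6 TPM). PLD6 and DDX4 are the genes whose points at 41.5 °C all lie above those at 38.5 °C, as in 4.96% of all genes tested. On the scale of counts (CPM, explained below) the groups of DDX4 overlapped.

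None of the 10 genes was called different between the temperatures. By the edgeR quasi-likelihood test, fitted on the counts of all 16056 genes with enough reads, 0 of 10 had an adjusted p below 0.05, against 0.0% of all genes tested. By DESeq2 0 of 10 were called as well, against 0.0202% of all genes. At an unadjusted p below 0.05 the edgeR test had 1 of 10, against 1.85% of all genes tested, and DESeq2 had 0 of 10, against 1.58%. The gene with that p was PLD6, higher at high temperature, as were 0.99% of all genes tested at such a p. The log2 fold change, high temperature over control, was below 0 for 9 of the 10 and above 0 for PLD6, with a median of -0.06, where 52.5% of all genes tested lay below 0 and their median was -0.02. This split depends on the scaling, since with no scaling beyond the library total 5 of the 10 lay below 0, where 38.5% of all genes did.

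The 95% interval of the fold change lay within 2-fold in both directions for 7 of the 10 genes, where 49.7% of all genes tested had such an interval. The exceptions in this fit, which has group as its only term, were PLD6, PIWIL2 and ASZ1. For these 3 the interval reached past 2-fold, upward for PLD6 and downward for PIWIL2 and ASZ1.

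**Figure D2:**
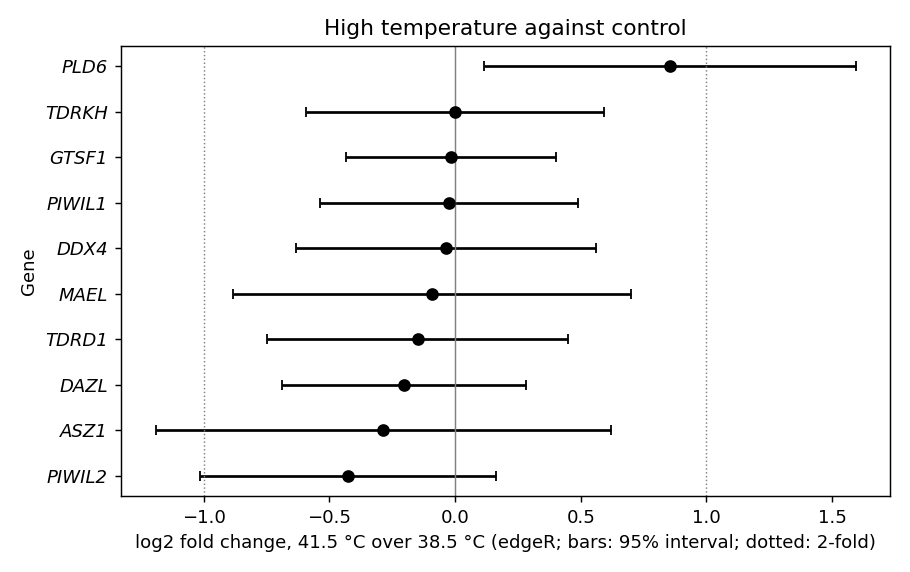
log2 fold change of each gene, 41.5 °C over 38.5 °C, with its 95% interval from edgeR; dotted lines mark 2-fold. PLD6, at 0.85, is the gene whose interval (0.12 to 1.59) does not hold 0.

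Transcripts of both PIWI genes among the 10 were present, at unequal levels. PIWIL1 (chromosome 14, 24729346 to 24760056, reverse strand, Sscrofa11.1) encodes the PIWI protein that in mouse acts with piRNAs of meiotic and postmeiotic male germ cells. It had 961, 1223 and 1450 reads at high temperature and 896, 1274 and 1397 in controls, or 40.9 ± 7.38 CPM and 41.6 ± 6.28 CPM (SD, n = 3 each; CPM is the count scaled to the TMM-adjusted library total). The groups overlapped almost wholly, and in both the library numbered 1 was lowest and the library numbered 3 highest. For PIWIL1 the log2 fold change was -0.02 (standard error 0.22, 95% interval -0.54 to 0.49).

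PIWIL2 (chromosome 14, 6560402 to 6632524, forward strand) encodes the PIWI protein that in mouse fetal testis amplifies piRNAs by cutting transposon transcripts. It had 224, 260 and 258 reads at high temperature and 355, 350 and 243 in controls, or 8.37 ± 0.685 CPM and 11.3 ± 2.88 CPM (SD, n = 3 each). The 3 heated libraries lay close together, below control libraries 1 and 2, and control library 3 lay among them. Its log2 fold change of -0.43 (standard error 0.26, interval -1.02 to 0.16) was the lowest of the 10 (edgeR unadjusted p = 0.134, adjusted p = 0.99998). Without control replicate 1 it was -0.27, and without control replicate 3 it was -0.62. Per length, PIWIL1 was above PIWIL2 in all 6 libraries, at 12.4, 16.1 and 19.8 TPM against 1.77, 2.11 and 2.16 TPM at high temperature, and at 11.02, 16.9 and 19.2 TPM against 2.69, 2.85 and 1.995 TPM in controls.

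The other PIWI genes of the annotation, named here for family and after their values were seen, were PIWIL3 and PIWIL4. PIWIL3, a gene that mice lack, was at 11.9 ± 2.58 TPM at high temperature and 10.9 ± 3.12 TPM in controls (SD, n = 3 each), between PIWIL1 and PIWIL2. PIWIL4, which in mouse acts in the nucleus of fetal male germ cells, had no read in 5 of the 6 libraries and 0.192 CPM in control library 1. The PIWI transcripts of these embryos were thus those of PIWIL1 and PIWIL3, with less of PIWIL2.

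GTSF1 (chromosome 5, 19639326 to 19661773, reverse strand) encodes a small zinc finger protein that binds PIWI proteins and promotes their cutting of target RNA. It was the steadiest of the 10, with 6340, 6543 and 6641 reads at high temperature and 6692, 5950 and 6221 in controls. Its level was 67.3, 71.2 and 74.6 TPM at high temperature and 67.7, 64.9 and 68.4 TPM in controls. The highest library exceeded the lowest by 1.15-fold, and the log2 fold change was -0.02 (standard error 0.18, interval -0.44 to 0.40).

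Beside GTSF1 the annotation holds LOC100621706, a gene of the product name gametocyte-specific factor 1-like (chromosome 5, 19669343 to 19676417). It lies 7569 bases past the higher coordinate of GTSF1, which is the side where GTSF1, on the reverse strand, starts. It is not among the 10 genes, and it is named after its values were seen because it was the fourth most abundant of all 30376 genes. Its level was 29912, 49302 and 71813 TPM at high temperature and 39340, 62626 and 72442 TPM in controls. It took 1.82%, 2.95% and 4.28% of all counts at high temperature and 2.42%, 3.68% and 4.29% in controls. These levels were 444-fold to 963-fold those of GTSF1 in the same library at high temperature and 581-fold to 1059-fold in controls.

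The abundance of LOC100621706 overlapped between temperatures (log2 fold change -0.29, interval -0.96 to 0.38, edgeR adjusted p = 0.99998). In both groups it was lowest in library 1 and highest in library 3, with the highest of all libraries 2.42-fold above the lowest. For GTSF1 the highest of all libraries in TPM was 1.15-fold above the lowest. In TPM, GTSF1 rose in the same library order at high temperature. In controls its TPM was lowest in library 2 and highest in library 3. On the CPM scale it was highest in library 2 at high temperature and in library 1 in controls. Whether reads of LOC100621706 were counted for GTSF1 was not tested, and the value of GTSF1 is uncertain to that extent.

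**Figure D3:**
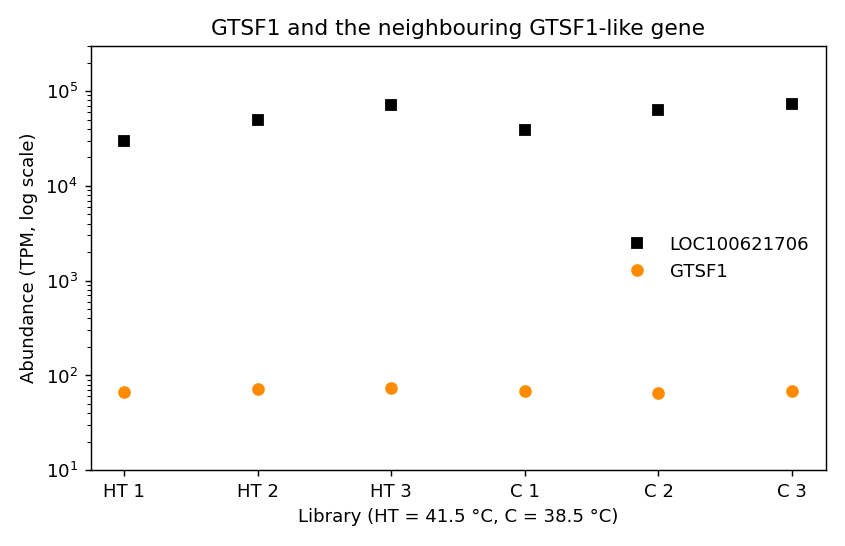
Abundance in TPM (log scale) of GTSF1 (circles) and of the neighbouring LOC100621706 (squares) in each library. LOC100621706 varies from 29912 to 72442 TPM while GTSF1 stays between 64.9 and 74.6 TPM.

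PLD6, TDRKH and ASZ1 belong to the mitochondrial surface, where piRNA precursors are cut and trimmed. PLD6 (chromosome 12, 61057896 to 61060681, forward strand) encodes MitoPLD, known as Zucchini in the fly, the outer membrane nuclease that makes the ends of piRNA intermediates. It had 47, 48 and 51 reads at high temperature and 17, 34 and 27 reads in controls. On the CPM scale this was 1.61, 1.67 and 1.67 at high temperature and 0.653, 1.17 and 0.896 in controls, and on the TPM scale 2.57, 2.70 and 2.99 at high temperature and 0.874, 1.91 and 1.53 in controls. The heated libraries were nearly equal and all lay above the controls, whose highest value was in library 2 and lowest in library 1.

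PLD6 was 1.81-fold higher in the mean at high temperature (interval 1.08 to 3.02), at 1.65 ± 0.0341 CPM and 0.907 ± 0.259 CPM (SD, n = 3 each). Its log2 fold change was 0.85 (standard error 0.32) and did not pass the test (edgeR unadjusted p = 0.0284, adjusted p = 0.99998; DESeq2 unadjusted p = 0.058). It was the 1 of 10 genes in which every heated library lay above every control on the CPM scale, as 3.66% of all genes tested did. In 0 of the 10 did every heated library lie below every control, against 4.05% of all genes tested. The value was 0.67 without control replicate 1 and 1.08 without control replicate 2. With 17 to 51 reads a library, it was the least counted of the 10.

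TDRKH (chromosome 4, 97415891 to 97438262, forward strand), a Tudor and KH domain protein that tethers PIWI proteins to mitochondria for trimming of piRNA ends, had 193, 192 and 138 reads at high temperature and 178, 152 and 172 in controls. That was 5.92 ± 1.23 CPM and 5.93 ± 0.826 CPM (SD, n = 3 each), with heated library 3 the lowest of all. TDRKH had a log2 fold change of -0.00058 (standard error 0.26, interval -0.59 to 0.59).

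ASZ1 (chromosome 18, 28859140 to 28910927, forward strand), also called GASZ, a scaffold anchored in the mitochondrial membrane, had 277, 182 and 137 reads at high temperature and 322, 203 and 161 in controls. Its mean was 6.76 ± 2.53 CPM at high temperature and 8.24 ± 3.68 CPM in controls. Library 1 was highest and library 3 lowest in both groups, and this spread within a group, 2.12-fold at high temperature and 2.32-fold in controls, was larger than the difference between groups. Its log2 fold change was -0.28 (standard error 0.39, interval -1.19 to 0.62) and 0.13 without control replicate 1. Of the 3 mitochondrial factors, then, PLD6 was higher in the mean at high temperature, TDRKH had equal means, and ASZ1 was lower in the mean, none past the test.

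TDRD1, MAEL and DDX4 encode proteins of nuage. TDRD1 (chromosome 14, 124526013 to 124575166, forward strand) carries several Tudor domains that bind methylated arginines of PIWI proteins. It had 1158, 1419 and 1912 reads at high temperature and 1084, 1681 and 2055 in controls, or 50.4 ± 11.5 CPM and 55.9 ± 13.4 CPM (SD, n = 3 each). Both groups ran over nearly the same range, with library 1 lowest and library 3 highest. For TDRD1 the log2 fold change was -0.15 (standard error 0.26, interval -0.75 to 0.45).

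MAEL (chromosome 4, 83990266 to 84040465, reverse strand), maelstrom, is needed in mouse testis for transposon silencing. It had 628, 645 and 1160 reads at high temperature and 463, 891 and 1165 in controls, or 27.3 ± 9.23 CPM and 29.0 ± 10.5 CPM (SD, n = 3 each). Libraries numbered 3 were nearly equal at both temperatures and were the highest, and the lowest was control library 1. MAEL had a log2 fold change of -0.09 (standard error 0.34, interval -0.88 to 0.70). MAEL was the 1 gene of the 10 that overlaps another counted gene, the noncoding LOC110260301 on the opposite strand, which had 9 reads or fewer in each library.

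DDX4 (chromosome 16, 34879701 to 34983701, forward strand), or VASA, is the DEAD-box RNA helicase used as a marker of the germline across animals. Its picture depended on the unit. It had 260, 270 and 327 reads at high temperature and 337, 266 and 228 in controls, which on the CPM scale was 9.65 ± 0.928 and 9.89 ± 2.77 (SD, n = 3 each), with control libraries both above and below the heated ones. In the authors' TPM it was at 4.76, 5.22 and 6.34 at high temperature and 4.52, 3.73 and 4.48 in controls, and every heated library lay above every control, as in 4.96% of all genes tested.

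The log2 fold change of DDX4 was -0.04 on counts (standard error 0.26, interval -0.63 to 0.56) and 0.29 on the log2(TPM + 1) scale (limma adjusted p = 0.999692). The TPM per CPM of DDX4 varied 1.70-fold between libraries, against 1.30-fold to 1.34-fold for the other 9 genes. For DDX4 it was 0.349 in control library 1 and 0.407 in control library 2. In control library 3 it was 0.593, and in the heated libraries 0.535, 0.557 and 0.594. DDX4 has 6 annotated transcripts, the most of the 10, and 5 of the others have 1. The files give 1 value per gene, so single transcripts were not tested.

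**Figure D4:**
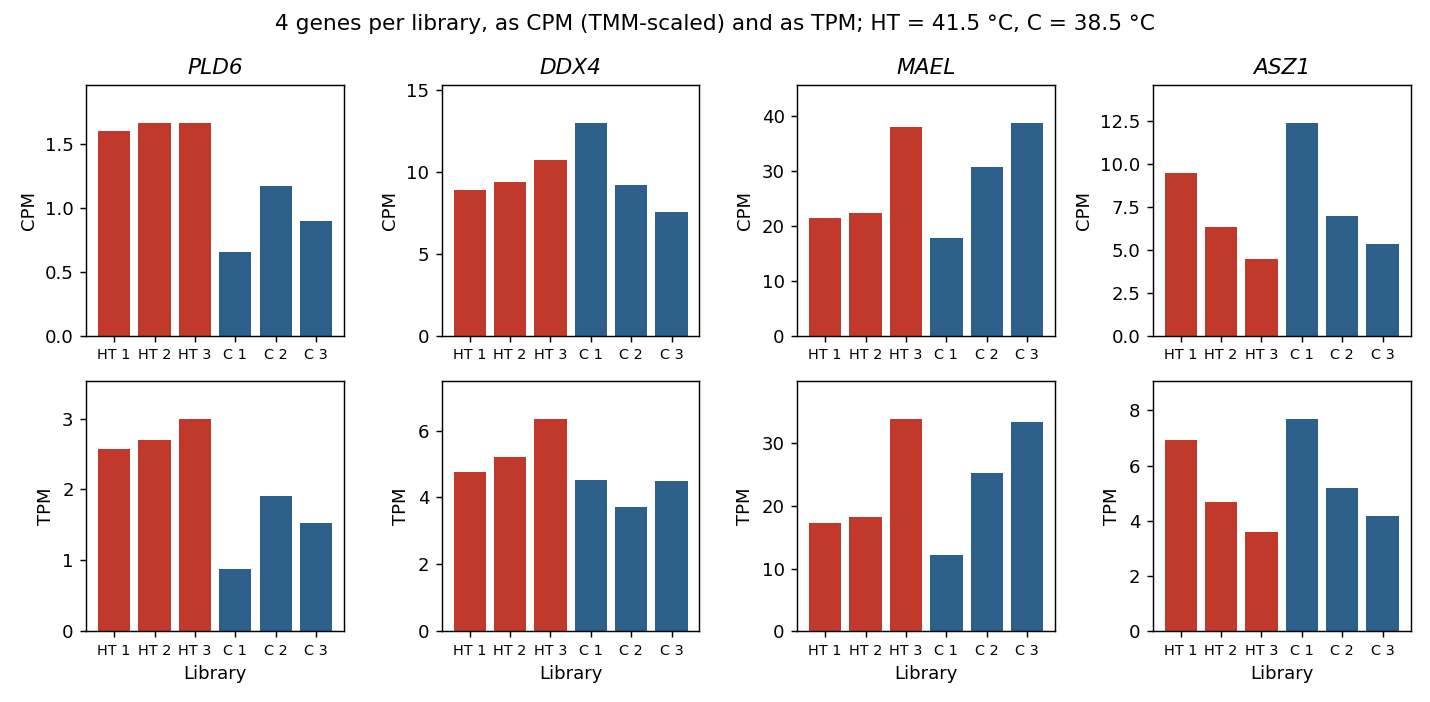
PLD6, DDX4, MAEL and ASZ1 in each library, as TMM-scaled CPM (top) and as the authors' TPM (bottom); heated libraries in red, controls in blue. PLD6 is higher in all 3 heated libraries in both units, DDX4 in TPM but not in CPM, and for MAEL and ASZ1 libraries 1 and 3 differ more than the temperatures.

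DAZL (chromosome 13, 3762896 to 3783848, reverse strand) encodes an RNA-binding protein of germ cells that promotes translation of its target transcripts, in mouse also in maturing oocytes. It had 497, 531 and 720 reads at high temperature and 540, 665 and 729 in controls. Its mean was 19.7 ± 3.43 CPM at high temperature and 22.6 ± 1.73 CPM in controls (SD, n = 3 each), and the groups overlapped through heated library 3. For DAZL the log2 fold change was -0.20 (standard error 0.21, interval -0.69 to 0.28).

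Libraries of the same temperature differed widely for several of the 10, most in MAEL and ASZ1, whose highest control was 2.17-fold and 2.32-fold above their lowest on the CPM scale. In 5 of them, PIWIL1, DAZL, MAEL, TDRD1 and ASZ1, the same library numbers were lowest and highest in both groups. Of all genes tested 44.3% had this, a share near that of the 10. The summed TPM of the 9 genes other than GTSF1 was 62.6, 68.3 and 93.4 at high temperature and 54.6, 77.9 and 90.5 in controls.

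Other genes of the piRNA pathway, and 5 further lists of related genes, held no gene past the test either. In none of these lists was there a gene with an unadjusted p below 0.05 in edgeR or in DESeq2. The splits above and below 0 given for each list are those of the main scaling, where 52.5% of all genes tested lay below 0. With no scaling beyond the library total that share was 38.5%, and the lists were not recounted. Of 26 measured piRNA pathway genes 23 had enough reads to be tested, 7 with a log2 fold change above 0 and 16 below, 0 past the test, with a median of -0.15. HENMT1, which methylates and so protects the ends of piRNAs, stood far above all 10 genes described here, at 1214 ± 325 TPM at high temperature and 1260.1 ± 229 TPM in controls (SD, n = 3 each). CLNS1A, a subunit of the PRMT5 arginine methyltransferase complex, was at 60.1 ± 4.99 TPM and 63.6 ± 5.64 TPM. FKBP6, a co-chaperone of piRNA loading in mouse, was at 47.7 ± 7.60 TPM at high temperature and 44.0 ± 14.0 TPM in controls.

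TCFL5, a transcription factor of the mouse testis that acts on piRNA pathway genes, was the 1 gene of the list whose groups did not overlap, at 3.52, 2.67 and 3.23 CPM at high temperature and 2.08, 2.45 and 2.65 CPM in controls. Its log2 fold change was 0.39 (interval -0.19 to 0.97). Groups without overlap, in either direction, were found in 7.71% of all genes tested. Among the Tudor genes of the list, named after their values were seen, RNF17 was at 33.2 ± 9.36 TPM at high temperature and 36.9 ± 11.9 TPM in controls, and TDRD5 at 11.8 ± 2.12 TPM and 11.13 ± 2.86 TPM. TDRD1 itself was at 10.2 ± 2.91 TPM at high temperature and 10.8 ± 3.67 TPM in controls. The precursor helicase MOV10L1, likewise chosen after the fact, had 3.47 ± 1.63 TPM at high temperature and 3.23 ± 1.07 TPM in controls, and the trimming nuclease PNLDC1 at 1.19 ± 0.218 TPM and 1.17 ± 0.557 TPM. SPOCD1, which links nuclear piRNAs to DNA methylation in mouse, had no read. It was picked for this, as were DNMT3L and STRA8 further on.

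Other germ cell RNA-binding and granule genes had 9 of 20 tested members above 0 and 11 below, 0 past the test, with a median log2 fold change of -0.04. FXR1, an RNA-binding protein of the fragile X family, was at 213 ± 46.2 TPM at high temperature and 228 ± 39.9 TPM in controls. ZAR1L, a relative of the maternal mRNA-binding protein ZAR1, was at 39.9 ± 12.4 TPM and 37.3 ± 17.8 TPM. LSM14A, a protein of cytoplasmic RNA granules, was at 34.9 ± 3.99 TPM at high temperature and 34.9 ± 6.26 TPM in controls. MEIOC, which keeps germ cells in meiotic prophase, was the 1 gene without overlap, at 9.47, 11.11 and 8.30 CPM at high temperature and 15.1, 11.6 and 11.15 CPM in controls (log2 fold change -0.39, interval -0.93 to 0.14). Of all genes tested 7.71% had no overlap, in either direction.

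The machinery of microRNAs and endogenous siRNAs, the other small RNA pathway of mammalian oocytes, had 10 of 12 tested genes above 0 and 2 below, 0 past the test, with a median of 0.03. Its most abundant transcripts were TNRC6A, a partner of Argonaute proteins, at 8.63 ± 2.33 TPM at high temperature and 8.23 ± 2.50 TPM in controls, the nuclear exporter XPO5 at 6.41 ± 0.391 TPM and 5.96 ± 0.830 TPM, and TNRC6B at 4.02 ± 1.02 TPM and 3.83 ± 1.22 TPM. AGO2, the cutting Argonaute, chosen after its values were seen, had 2.26 ± 0.486 TPM at high temperature and 2.38 ± 0.444 TPM in controls, a level near that of PIWIL2.

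Genes of nuclear transposon silencing had 9 of 13 tested genes above 0 and 4 below, 0 past the test, with a median of 0.12. The heterochromatin protein gene CBX3 was at 194 ± 48.0 TPM at high temperature and 220 ± 64.4 TPM in controls. Of the HUSH complex, which silences transposons in chromatin, PPHLN1 was at 185 ± 41.7 TPM and 217 ± 28.6 TPM and MPHOSPH8 at 29.6 ± 1.81 TPM and 28.3 ± 4.13 TPM. The groups did not overlap for PPHLN1 (374, 576 and 517 CPM at high temperature and 593, 646 and 582 CPM in controls) and for the histone H3 lysine 9 methyltransferase EHMT2 (3.15, 2.95 and 4.28 CPM at high temperature and 0, 2.31 and 2.85 CPM in controls). The log2 fold changes of PPHLN1 and EHMT2 were -0.31 (interval -0.79 to 0.17) and 0.997 (interval -1.12 to 3.11). On the CPM scale 7.71% of all genes tested had no overlap in either direction. DNMT3L, which in mouse germ cells methylates transposons together with DNMT3A, had no read.

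Repressors that keep germline genes silent in other cells had 6 of 10 tested genes above 0 and 4 below, 0 past the test, with a median of 0.09. The Polycomb ubiquitin ligase gene RNF2 was at 93.6 ± 23.2 TPM at high temperature and 85.8 ± 19.6 TPM in controls, PCGF6 at 23.1 ± 1.79 TPM and 26.7 ± 5.82 TPM, and RYBP at 26.7 ± 5.32 TPM and 22.7 ± 3.60 TPM. MAX, the E-box binding partner of MGA in this complex, did not overlap between groups on the CPM scale. It was at 28.6, 34.2 and 38.6 CPM at high temperature and 15.5, 28.5 and 27.4 CPM in controls (log2 fold change 0.51, interval -0.13 to 1.14). In TPM its groups overlapped, at 17.9, 21.6 and 26.9 at high temperature and 8.24, 18.2 and 18.2 in controls. The share of all genes tested without overlap on the CPM scale, in either direction, was 7.71%.

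Meiotic prophase genes had 3 of 15 tested genes above 0 and 12 below, 0 past the test, with a median of -0.06. SYCP3, a protein of the chromosome axis, was at 1179 ± 341 TPM at high temperature and 1564 ± 768 TPM in controls, and the meiotic cohesin SMC1B at 197 ± 35.7 TPM and 222 ± 39.5 TPM. SYCE2, of the synaptonemal complex, was at 57.0 ± 13.8 TPM at high temperature and 70.9 ± 18.9 TPM in controls. SYCP1, which joins the chromosome axes, had 37.5, 37.2 and 33.6 CPM at high temperature and 70.6, 39.9 and 37.6 CPM in controls, without overlap and with control library 1 well above the rest (log2 fold change -0.45, interval -1.08 to 0.18). A lack of overlap in either direction was seen in 7.71% of all genes tested. STRA8, which starts meiosis, had no read.

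**Figure D5:**
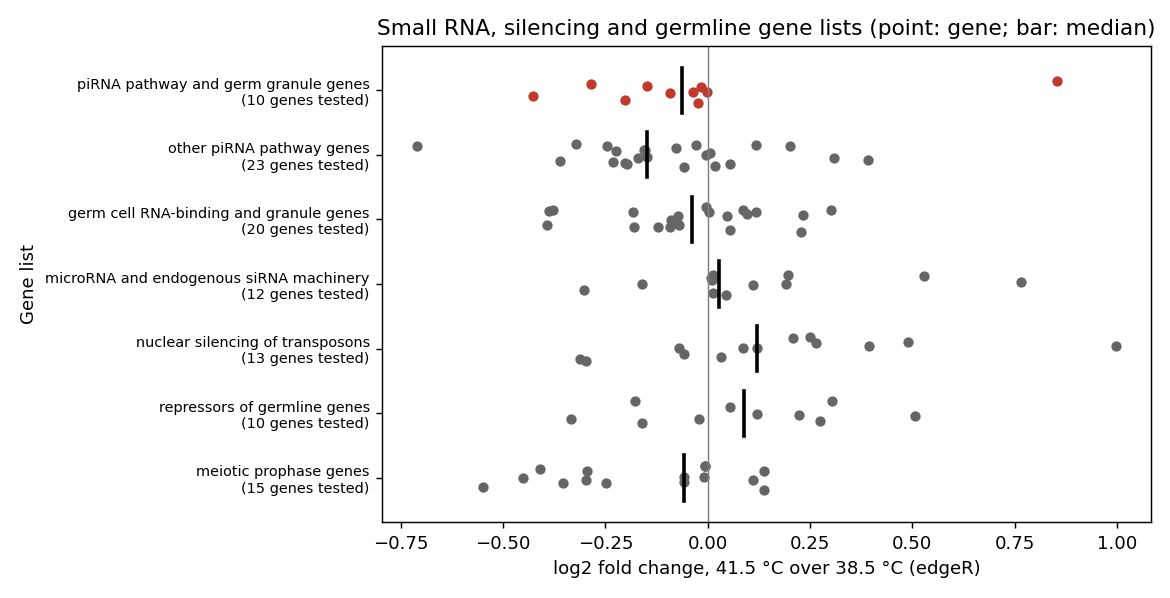
log2 fold change, 41.5 °C over 38.5 °C, of the tested genes of each list (points; vertical spread within a list is for visibility) and the median of the list (bar). The 10 genes described here (red) have a median of -0.06 and the other lists medians of -0.15 to 0.12, with no gene past the adjusted threshold.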

How the data were processed

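Per the file headers, the deposited table gives a raw read count for each gene and library. It also gives FPKM and TPM, both calculated by the authors, per the file headers. Tools named in the submitters' processing notes, without roles, are StringTie 2.1.3b, HISAT2 2.1.0, Trimmomatic 0.38, Bowtie2 and HISAT, and the build is Sscrofa11.1. The sources used here do not give which tool counted the reads or how it treated shared reads, and the library kit does not mark strand. Libraries were grouped by their titles. FPKM columns were checked against each sample's own table (99.4% to 99.5% of 30376 genes equal within 1e-05, at most 27.9% in any other).

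The main test was that of edgeR 4.0.16 under R 4.3.3 (quasi-likelihood test on the counts, TMM scaling, default filter, group as the only term, Benjamini-Hochberg adjustment at 0.05). DESeq2 1.42.0 and limma 3.58.1 on log2 FPKM or TPM were alternatives. Intervals are edgeR's 95% intervals. The 24 rows without a symbol were kept. Positions come from a RefSeq table of the same build (30352 genes matched). The fit was tested on simulated data of the same design, where it called none of the 2-fold changes and most of the larger ones. The 10 genes, the lists and the rules were chosen with earlier results of these data known. Named were all 10 genes, and from each other list the 3 genes of highest mean TPM, any called gene, and up to 4 genes of at least 1 CPM whose groups did not overlap. Likeness of profiles was sought among genes of at least 10 CPM. The listed genes NANOS3, TASOR, HORMAD2 and MEIOSIN are not analysed here.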

Additional observations from a re-analysis of the deposited data

How the results depend on the processing

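The count of genes called among the 10 was 0 under every alternative run. Over all genes it was 0 in edgeR and 1 with no filter on low counts, 3 with the replicate number as a block and 5 with DESeq2. Same-numbered libraries deviated together for numbers 1 and 3 (correlation 0.516 and 0.586) but not for 2 (0.008). Number 1 of one group and number 3 of the other deviated in opposite directions (-0.521 and -0.566). Deviations were taken from group means of 3 libraries, and a gradient from number 1 to 3 leaves number 2 near its mean. The value for number 2 therefore cannot decide whether libraries are paired. The labels name no batch, so the replicate block is given here only. With it the log2 fold change of PLD6 was 0.88 (adjusted p = 0.458), that of PIWIL2 -0.40 (0.564) and that of ASZ1 -0.26 (0.631). Their standard errors were 0.30, 0.19 and 0.17 with the block, against 0.32, 0.26 and 0.39 in the main fit. The genes whose interval reached past 2-fold are therefore those of the main fit. The order by level was the same in mean FPKM, and 8 of 10 ranks were the same by median TPM. PLD6, PIWIL2 and DAZL kept their direction under all 17 alternatives each.

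The log2 fold changes near 0 changed sign under several alternatives, and those of ASZ1 (-0.28) and TDRD1 (-0.15) under 1 each. The cause was not tested. With no scaling beyond the library total the reversed values were 0.063 for PIWIL1, 0.088 for DDX4, 0.089 for GTSF1 and 0.10 for TDRKH. With the stricter filter TDRKH was at 0.00075. On the log2(FPKM + 1) scale, with or without the filter, they were 0.047 for PIWIL1, 0.27 for DDX4, 0.084 for GTSF1, 0.019 for MAEL and 0.057 for TDRKH. With a pseudocount of 0.1 they were 0.051, 0.35, 0.086, 0.024 and 0.077 for the same genes, and on the log2(TPM + 1) scale 0.045, 0.29, 0.082, 0.017 and 0.060. Leaving out 1 library at a time gave -0.14 to 0.11 for PIWIL1, -0.20 to 0.21 for DDX4, -0.075 to 0.10 for GTSF1, -0.38 to 0.17 for MAEL, -0.61 to 0.13 for ASZ1, -0.32 to 0.018 for TDRD1 and -0.10 to 0.19 for TDRKH. Summed with the gene it overlaps, MAEL kept its direction. PLD6 rests on 17 to 51 reads a library.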

Other observations

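Genes whose profile over the 6 libraries was most like that of a gene described here were sought for the 3 of highest CPM, among 6289 genes, by the root mean square difference of centred log2 CPM. For TDRD1 they were PDE8B (0.03), LOC110255677 (0.04) and FARP1 (0.04), where TDRD1 itself varied by 0.29 around its mean and the median gene lay 0.33 away. For PIWIL1 they were DR1 (0.03), MAPK8 (0.03) and TBC1D5 (0.03), with 0.20 for PIWIL1 itself. For GTSF1 they were AHR (0.03), NRDE2 (0.03) and ZNF597 (0.03), with 0.11 for GTSF1 itself. With 6 libraries and this many genes, such closeness is a description of these libraries.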
